A study of Mus musculus with 8 samples.

Results

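The interferon-stimulated genes followed here are 33 listed genes that interferons are known to switch on, and 31 of them had a probe set of their own among the 30571 genes measured. The rule took each by its symbol, current or older, in the probe annotation. Gbp5 shared its only probe set with Gbp2b and was left out, and Ifi44 was not analysed here. Gene expression was measured on 8 Affymetrix arrays, 1 per mouse, in forepaw skin from mice of C57Bl/6 background at 8 weeks of age. The control group was 2 male and 2 female WT littermates, labelled Normal. The other group was 2 male and 2 female Krt16 null mice, labelled Lesion, in which the keratin gene Krt16 was replaced throughout the body by LacZ. No other allele and no treatment is named for either group. Genotype and lesion therefore cannot be told apart, and each difference below is lesional null paw skin minus normal WT paw skin. Values are log2 signals, so that a difference of 1 is a doubling.

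Interferons are secreted proteins that warn cells of infection. Type I interferons act through the receptor Ifnar1 and Ifnar2 and a transcription factor complex that holds Stat2 and Irf9 and binds the interferon-stimulated response element (ISRE). Interferon gamma acts through Ifngr1 and Ifngr2 and the gamma-activated sequence (GAS) in promoters, and is the classical inducer of the guanylate-binding proteins (Gbp genes). In skin, keratinocytes, macrophages and dendritic cells both make and answer such signals.

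Of the 31 members, 5 were lower in null skin and 1 was higher at an adjusted p under 0.05, which is what "called" means below. The 5 lower members were 4 guanylate-binding proteins, Gbp2, Gbp3, Gbp4 and Gbp7, and Ifit3, and the higher one was Trim25. Across all genes 5.96% were called lower and 7.04% higher, so that the share of members called lower lay above the background and the share called higher below it. The classical interferon-stimulated genes Isg15, Mx1, Rsad2 and the oligoadenylate synthetases were not called. The differences were small, from -0.50 to 0.41, and their median was -0.12 against 0.01 over all genes. They were negative in 23 members and positive in 8, while 45.31% of all genes had a negative difference. Before adjustment, 12 members had p under 0.05 in limma, 10 of them lower and 2 higher, where 12.0% of all genes were lower and 14.5% higher by that measure.

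The arrays set limits on these values. Krt16, the targeted gene, read 8.48 and 8.20 in the WT males, 9.66 in female WT 2 and 6.83 to 6.99 in the 4 null mice. The library labelled female WT 1 read 7.05, close to the null arrays, and Krt16 was not called (-1.45, SE 0.438, limma adjusted p = 0.0615). Where the probes lie on the gene was not examined, so a remaining signal in null skin says nothing of the allele. The mean of 8 neutrophil markers was 6.38 in the library labelled female WT 1, 4.30 to 4.73 in the other WT arrays and 6.27 to 6.64 in null skin. The 8 markers did not move alike between the genotypes. Of them 3 were called higher and 3 had negative differences, with a median of 0.22 and a largest difference of 5.69. Their mean therefore does not stand for the list as a whole. The library labelled female WT 1 kept a WT-like mean of 18 skeletal muscle genes, 9.65, against 8.88 to 9.27 in the other WT arrays and 8.12 to 8.67 in null skin. Results are therefore also given without it. The tissue label was borne out by 10 of 10 keratinocyte markers, which lay above the negative control median on all 8 arrays (mean 10.7 to 10.9).

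Many members were dim. The median of the negative control probe sets lay between 4.26 and 4.46 on the 8 arrays. 16 members were above it on all 8 arrays, 6 on some and 9 on none. The 9 were Zbp1, Isg15, Ifit1, Oas2, Oasl2, Mx1, Mx2, Rsad2 and Rtp4. For these 9 a missing call does not show that the gene was unchanged. The 95th percentile of the negative controls, 7.26 to 7.43 on the 8 arrays, was above the mean of every member (highest 6.61). A value above the negative control median therefore does not set a member clear of the spread of those controls. In whole skin, fewer cells of a type and less RNA per cell cannot be told apart.

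**Figure D1:**
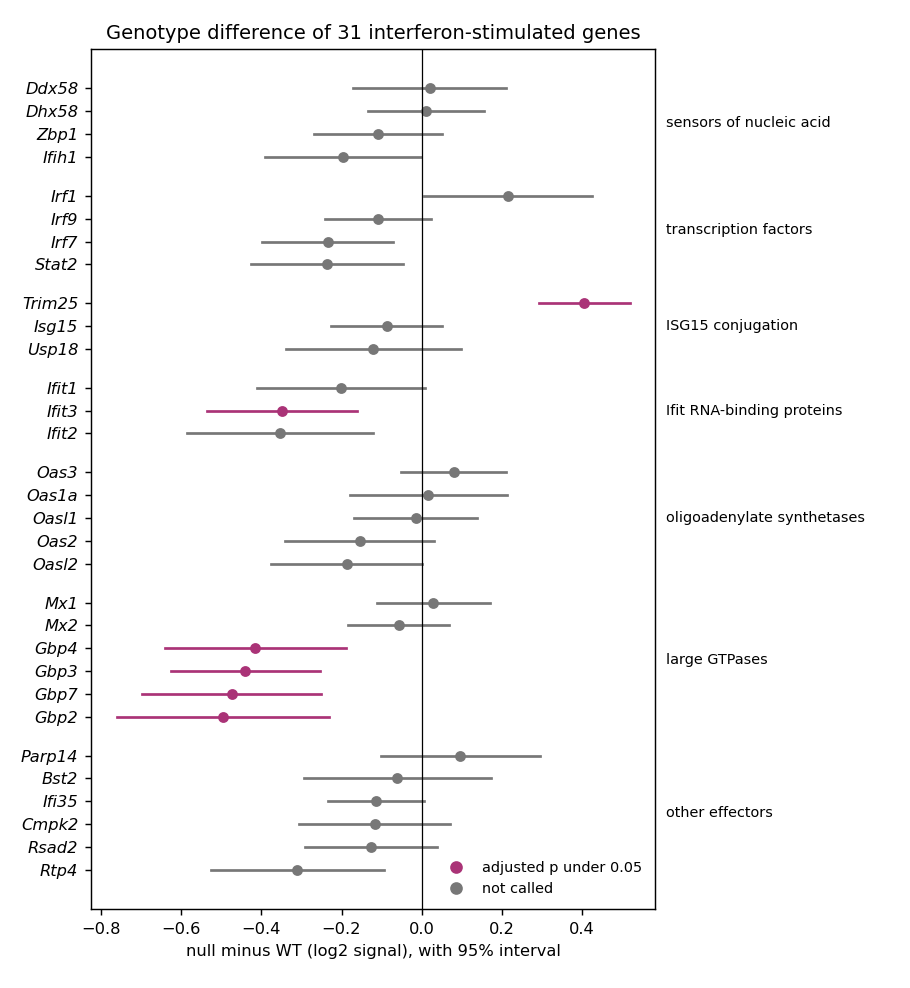
Null minus WT difference of the 31 measured members in log2 signal, by role, with the 95% interval of the limma fit. The Gbp genes and Ifit3 lie left of 0, Trim25 lies right of it at 0.41, and the synthetases cluster near 0.

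Promoter sequences were searched for the interferon elements. The ISRE core, searched on both strands as GAAANNGAAA, occurred between 250 bases before and 50 bases after the gene start in 14 of the 24 members with a promoter in the RefSeq table (GRCm38.p6), or 58.3%, against 3.99% of all 27025 genes with a promoter in the table. A gene can have several starts, and counted by window it was in 14 of 28 member windows against 3.44% of 32851. The GAS core, TTCNNNGAA, occurred in 7 of 24 members (29.2%) against 9.55% of genes. Such a match is a description and does not show a bound site. The 200 bases before the start of 4 of the lower genes are printed below because each holds the ISRE core in that window. All 4 are on the plus strand, and capitals mark the match, which reads on the minus strand and so appears as its reverse complement. They are Gbp2 at chr3:142620463-142620662, Gbp3 at chr3:142559844-142560043, Gbp7 at chr3:142530136-142530335 and Ifit3 at chr19:34583329-34583528.
Gbp2: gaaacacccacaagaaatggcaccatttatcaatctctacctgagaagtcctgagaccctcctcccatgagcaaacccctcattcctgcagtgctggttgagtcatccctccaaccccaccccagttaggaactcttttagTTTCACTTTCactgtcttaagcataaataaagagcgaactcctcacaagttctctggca
Gbp3: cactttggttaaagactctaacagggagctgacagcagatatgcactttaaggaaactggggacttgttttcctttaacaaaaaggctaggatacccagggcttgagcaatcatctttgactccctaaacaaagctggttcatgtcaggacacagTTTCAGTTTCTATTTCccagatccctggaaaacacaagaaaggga
Gbp7: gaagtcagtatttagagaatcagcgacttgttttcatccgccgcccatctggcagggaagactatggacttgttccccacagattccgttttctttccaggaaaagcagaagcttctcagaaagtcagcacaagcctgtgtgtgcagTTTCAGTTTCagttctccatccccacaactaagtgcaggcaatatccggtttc
Ifit3: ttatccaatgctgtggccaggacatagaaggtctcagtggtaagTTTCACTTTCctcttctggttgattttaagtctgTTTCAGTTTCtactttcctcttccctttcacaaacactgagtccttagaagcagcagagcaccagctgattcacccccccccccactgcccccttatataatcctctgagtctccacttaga
The match begins 59 bases before the gene start in Gbp2 and 53 in Gbp7. Gbp3 holds a pair of overlapping matches that begin at 45 and 39 bases, while the window of its second listed start holds none, and Ifit3 holds separate ones at 156 and 122 bases. Trim25, the higher member, held no ISRE core in its 300 base window, which says only that these letters are not in it. The core was not confined to the lower members. Members without a call held it too, with 3 matches in Isg15 and 2 each in Ifit1, Oas1a and Bst2. Ifit2, with a difference of -0.35, held none in either of its windows, and Gbp4 had no promoter in the table.

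Guanylate-binding proteins are large GTPases that gather on the membranes around bacteria and parasites inside cells and help break them open. Of the 6 large GTPases among the members, 4 were lower and the median difference was -0.43. Gbp2 read 5.29, 4.98, 5.67 and 5.66 in the WT mice (males first, then females) and 5.03, 4.71, 4.96 and 4.91 in the null mice. The male WT 2 value lay within the null range, while both WT females stood clearly above every null array. The mean fell from 5.40 ± 0.33 (SD, n = 4) to 4.90 ± 0.14, a difference of -0.50 (SE 0.117, limma adjusted p = 0.0246), or 0.709 of the WT signal.

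Gbp3 was the only Gbp gene here whose genotypes did not overlap. It read 4.63, 4.59, 4.88 and 5.17 in WT and 4.23, 4.35, 4.46 and 4.47 in null skin (difference -0.44, SE 0.0825, limma adjusted p = 0.00991). Its null values lay at the level of the negative controls, and 0.737 of the WT signal is a ratio of signals, not of transcripts.

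Gbp4 and Gbp7 lay above the negative control median on all 8 arrays. Gbp4 read 6.19, 5.96, 6.43 and 6.84 in WT and 5.78, 5.76, 6.04 and 6.18 in null skin (difference -0.42, 95% interval -0.64 to -0.19, limma adjusted p = 0.0268). Gbp7 read 5.77, 5.56, 6.07 and 6.32 in WT and 5.45, 5.22, 5.49 and 5.66 in null skin (difference -0.47, SE 0.0989, limma adjusted p = 0.0149). In both genes the 2 WT females were highest, and the null females overlapped the WT males. The other large GTPases, Mx1 and Mx2, differed by 0.03 and -0.06, with both genes under the negative control median on every array.

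Gbp3 kept its call in limma without each array in turn, and all 4 Gbp genes kept theirs without the library labelled female WT 1 (differences -0.45 for Gbp2, -0.47 for Gbp3, -0.47 for Gbp4 and -0.49 for Gbp7). The Gbp2 call was lost on leaving out either null female, male null 2, female WT 2 or male WT 1 (0.0653 to 0.0815). Gbp4 lost it without either null female, male null 2 or male WT 1 (0.0612 to 0.0896) and without the sex term (0.146). Gbp7 lost it without male null 2 (0.0540), without female null 1 (0.0515) and without the sex term (0.0691).

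**Figure D2:**
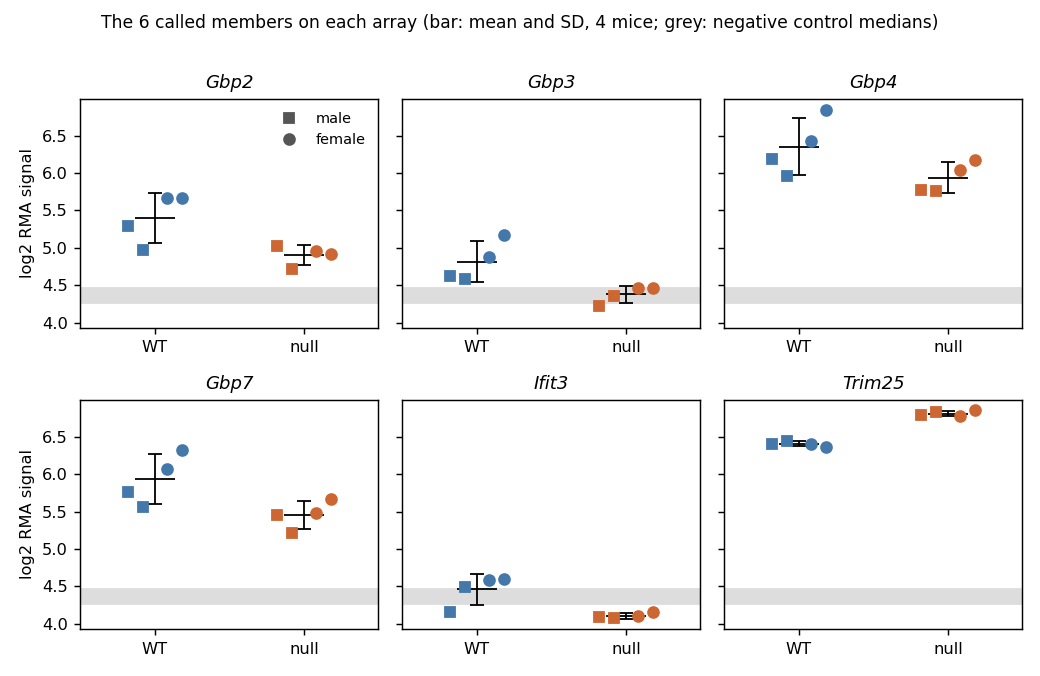
Log2 signal of the 6 called members on each of 8 arrays, squares for males and circles for females, with the mean and SD of the 4 mice of each genotype and a grey band for the range of negative control medians (4.26 to 4.46). Trim25 separates the genotypes with the least spread, and Ifit3 in null skin lies under the band.

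The Ifit proteins bind viral RNA and hinder its translation. Ifit3, which stabilises the complex that Ifit1 forms, read 4.16, 4.50, 4.58 and 4.60 in WT and 4.09, 4.07, 4.11 and 4.16 in null skin. Male WT 1 lay with the null arrays and the 3 other WT arrays above them. The difference was -0.35 (SE 0.0832, limma adjusted p = 0.0255), and every null value was under the negative control medians.

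Ifit2 had as large a difference (-0.35, SE 0.103) but an adjusted p of 0.054 in limma. It read 4.38, 4.05, 4.39 and 4.43 in WT and 4.16, 3.84, 3.88 and 3.94 in null skin, so that male WT 2 overlapped male null 1. With the mice of the same sex and number as pairs it was called lower (adjusted p = 0.0225), and likewise without male WT 2 (0.0217), without male null 1 (0.0161), without the sex term (0.0400), with a robust prior (0.0449) and with array weights (0.0315). Ifit1 differed by -0.20 (adjusted p = 0.209) and was under the negative control median on all arrays. The median over the 3 Ifit genes was -0.35. Ifit3 kept its call without the library labelled female WT 1 (-0.33, adjusted p = 0.0488) and lost it on leaving out either null female, male null 2, female WT 2 or male WT 2 (0.0615 to 0.0850).

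Trim25 is a ubiquitin ligase that activates the RNA sensor RIG-I (Ddx58) and can also attach ISG15. It read 6.41, 6.45, 6.41 and 6.36 in WT and 6.79, 6.83, 6.77 and 6.85 in null skin. The genotypes were apart by much more than the spread within either. The mean rose from 6.41 ± 0.04 (SD, n = 4) to 6.81 ± 0.04 (difference 0.41, SE 0.0501, limma adjusted p = 0.00147), 1.32 times the WT signal, and the call held without each array in turn (0.00258 to 0.00825). The others of the ISG15 system were not called. Isg15 itself, a ubiquitin-like protein, read 2.69 to 2.94 in WT and 2.64 to 2.80 in null skin, far under the negative controls. Usp18, which removes ISG15 and dampens Ifnar2, differed by -0.12 (adjusted p = 0.498).

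The transcription factors gave no call, with a median of -0.17. Irf7, the amplifier of type I interferon production, read 5.22, 5.15, 5.38 and 5.08 in WT and 4.934, 5.002, 5.014 and 4.940 in null skin. These did not overlap, yet the difference of -0.23 (SE 0.073) had a limma adjusted p of 0.067. It was called lower with mice paired by number (0.0498) and without female WT 2 (0.0288). It was also called after repeated quantile normalization, with either filter on dim genes and with array weights (0.0434 to 0.0474). Stat2 differed by -0.24 (adjusted p = 0.103) and Irf9, its partner, by -0.11 (0.279).

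Irf1, a factor that interferon gamma induces, went the other way. It read 5.26, 5.06, 5.35 and 4.91 in WT and 5.33, 5.39, 5.39 and 5.34 in null skin (difference 0.22, limma adjusted p = 0.177). The null arrays were tightly grouped, and the library labelled female WT 1 lay among them. Without that library Irf1 was called higher (0.30, adjusted p = 0.0401), which made 2 higher members. A second, dimmer Irf1 probe set had means of 3.66 in WT and 3.54 in null skin, the opposite order.

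The 4 sensors of viral nucleic acid were not called, with a median of -0.05. The RNA sensor Ifih1 (MDA5) differed by -0.20 (limma adjusted p = 0.183), and Ddx58 and its relative Dhx58 by 0.02 and 0.01. Zbp1, a sensor of Z-form nucleic acid, differed by -0.11.

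The oligoadenylate synthetases, which activate an RNA-cutting enzyme or act as antiviral relatives, also gave no call among 5 (median -0.02, range -0.19 to 0.08). Oas3 differed by 0.08 and Oas1a by 0.02, Oasl1 by -0.02, Oas2 by -0.15 and Oasl2 by -0.19.

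None of the 6 other effectors was called (median -0.12). Rtp4, a negative regulator of interferon signalling, read 3.68 to 3.84 in WT and 3.39, 3.35, 3.24 and 3.74 in null skin, with female null 2 alone inside the WT range. Its difference was -0.31 (limma adjusted p = 0.067) and it was called without female null 2 (-0.41, adjusted p = 0.0122). Ifi35, a protein of the interferon response, was lower in every null array than in any WT array, by -0.11 in the mean (adjusted p = 0.208). Rsad2 (viperin), which blocks viral RNA synthesis, differed by -0.13, and its genomic neighbour Cmpk2, a mitochondrial nucleotide kinase, by -0.12. Bst2 (tetherin), which holds virions at the cell surface, differed by -0.06, and Parp14, an ADP-ribosyltransferase, by 0.10.

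Of 31 members, 3 did not overlap in the lower direction (Irf7, Gbp3, Ifi35) against 8.76% of all genes, and 1 in the higher direction (Trim25) against 10.1%. These shares lie near or under the background. For 23 of the 25 members without a call, the 95% interval of the difference stayed within 0.5 of 0. The exceptions were Ifit2 and Rtp4, whose intervals reached -0.59 and -0.53. The 25 include the 9 members under the negative control median on all arrays. For those an interval of signals does not bound the change in transcripts.

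**Figure D3:**
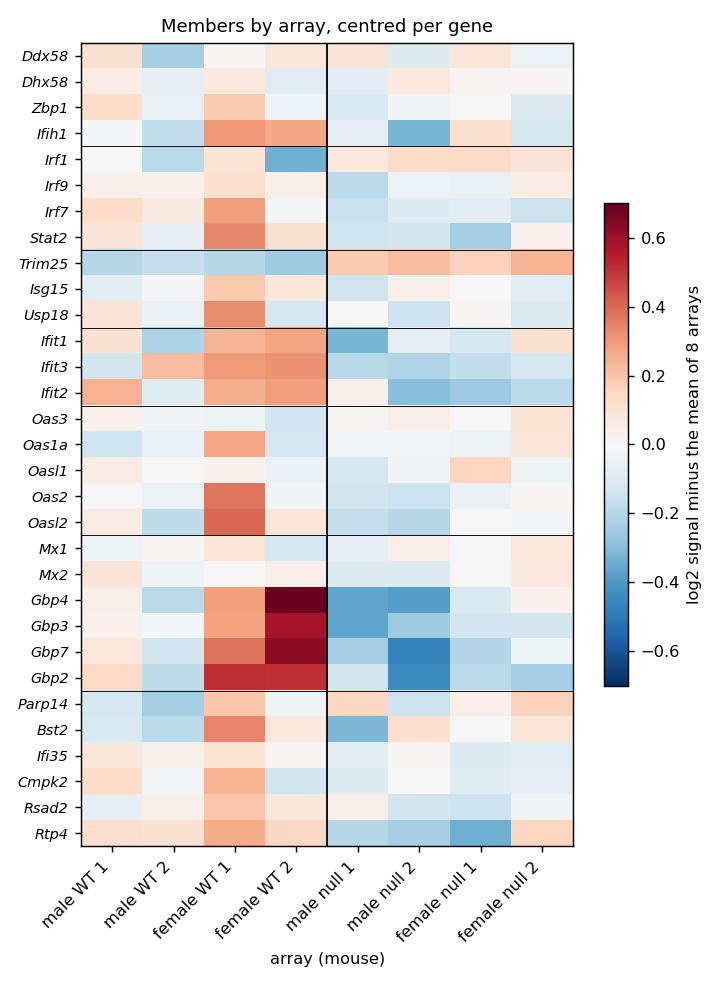
Log2 signal of each member on each array minus its mean over 8 arrays, ordered by role. Red cells gather in the female WT columns, most of all in the Gbp rows, and Trim25 is blue in WT and red in null skin.

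The highest values came mostly from WT females. The library labelled female WT 1 was the highest array for 19 of 31 members and female WT 2 for 6, but female WT 2 was also the lowest for 5. Male null 1 and male null 2 were the lowest for 10 and 9. Both WT females were above both WT males in 16 members, against 10.87% of all genes, and below them in 2, against 23.39%. In null skin the same counts were 7 and 0. The shares over all genes were not taken there, so these counts cannot be set against a background. The female minus male difference was above 0 in 26 members against 43.5% of all genes. No member was called for sex in limma (0.0164% of all genes were). An unadjusted p under 0.05 was found for 8 members, and the share over all genes was not taken. Without the library labelled female WT 1, an alternative added after the data were seen, the female minus male difference was above 0 in 21 members against 42.58% of all genes. Female WT 2 alone was above both WT males in 16 members, against 27.58% of all genes, and below both in 10, against 47.27%.

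The genotype difference was more negative in females for 22 of 31 members, against 44.11% of all genes. The median was -0.17 in females and -0.10 in males. In both sexes 20 members were lower and 6 higher, against 9079 and 10984 of all 30571 genes. No sex by genotype term was called for a member (0.00654% of all genes were). Gbp2 alone among the members had an unadjusted p under 0.05 (males -0.27, females -0.73, limma adjusted p = 0.973), as had 1294 of all genes. WT mice also varied more: the SD was larger in WT for 25 of 31 members against 56.67% of all genes, with a median SD of 0.162 in WT and 0.0898 in null skin. Without the library labelled female WT 1 the difference was more negative in females for 15 members (43.61% of all genes), and the SD was larger in WT for 20 (51.01%).

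Genes around the members were followed in 7 lists. Over all genes 7.04% were called higher and 5.96% lower, and the counts of each list stand beside those shares. The same holds for the cell type markers further below. No list was tested as a set. At the start of the pathway, the receptors and ligands gave 1 higher call among 17. It was Ifngr2, the signal-transducing chain of the interferon gamma receptor, which read 7.10, 7.17, 7.15 and 7.04 in WT and 7.63, 7.58, 7.64 and 7.59 in null skin (0.49, SE 0.0530, limma adjusted p = 0.000745). Its genotypes did not overlap, and the call held without each array in turn. Ifngr1, Ifnar1 and Ifnar2 differed by 0.06, -0.09 and 0.03. Of the interferon genes, Ifnb1, Ifng, Ifnk, Ifne, Ifna2, Ifna4 and Ifna5 were under the negative control median on all arrays. Ifnl2 and Ifnl3 were above it on all 8, Ifnz on 6 and Ifna1 on 2, and none of these 4 was called.

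Of 16 signalling genes, 4 were higher and 1 was lower (median 0.11). Stat3, the factor that carries interleukin-6 family signals, was higher by 0.26 (SE 0.0522, limma adjusted p = 0.0128) and kept its call without each array. The kinase Jak2 (0.27, adjusted p = 0.0279), the brake Socs3 (0.37, 0.0494) and the corepressor Irf2bp2 (-0.21, 0.0284) were called too. Each lost its call without 6 of the 8 arrays. For Jak2 the exceptions were female WT 2 and female null 2 (adjusted p 0.0518 to 0.0899 without the others). For Socs3 (0.0670 to 0.149) and Irf2bp2 (0.0617 to 0.0995) they were male null 1 and the library labelled female WT 1. Socs3 (0.0579) and Jak2 (0.0600) were also not called without the sex term, nor Jak2 (0.0550) and Irf2bp2 (0.0611) with centred arrays.

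The nucleic acid sensing genes had 6 higher and 2 lower calls among 27 (median 0.01). Sting1, the adaptor of cytosolic DNA sensing, read 5.08, 5.07, 5.62 and 4.93 in WT and 6.14, 6.52, 5.89 and 5.89 in null skin (0.94, SE 0.175, limma adjusted p = 0.00961). The highest WT value was that of the library labelled female WT 1, without which the difference was 1.14. Samhd1, which depletes nucleotides needed by viruses, was higher by 0.82 (adjusted p = 0.000513), and Tlr7, an endosomal RNA sensor of plasmacytoid dendritic cells and macrophages, was lower by -0.60 (0.00616), with every null value under the negative control medians and 2 of 8 arrays above. These 3 kept their calls without each array. Myd88, the adaptor of most Toll-like receptors (0.33, 0.0240), was not called on leaving out female null 1, female WT 2, male null 2 or male WT 1 (0.0606 to 0.0829). Ticam1, the adaptor of Tlr3 (-0.23, 0.0358), was called after leaving out male WT 1 and no other array (0.0638 to 0.105). Without the library labelled female WT 1 this list had 6 higher and 1 lower.

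Of 65 further interferon-stimulated effectors, 6 were higher and 7 lower (median -0.02). Slfn2 (0.65, limma adjusted p = 0.00632), a Schlafen protein of immune cells, Ch25h (0.65, 0.00298), which makes the antiviral lipid 25-hydroxycholesterol, and Tent5a (0.59, 0.0116), a poly(A) polymerase, were higher. Lgals9, the galectin-9 gene, was lower (-0.45, 0.00452). These 4 kept their calls without each array. Ifi207, a PYHIN protein, was lower by -0.72 (0.0348), and not called without any 1 of 6 arrays (all but male WT 1 and male null 1; 0.0635 to 0.109), with mice paired (0.0503) or with a robust prior (0.0609). Xaf1, a promoter of cell death, was lower by -0.30 (0.0346), was called after leaving out female WT 2 and no other array (0.0531 to 0.103), and was not called with mice paired (0.0554). Without the library labelled female WT 1 the list held 7 higher and 2 lower calls.

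The interferon-inducible GTPases outside the members went the way of the Gbp members. All 8 had negative differences, 3 of 8 were called lower and none higher, and the median was -0.27. Igtp (Irgm3), an immunity-related GTPase of the cell's defence against vacuolar parasites, read 5.25, 5.22, 5.68 and 5.88 in WT and 4.709, 4.952, 4.999 and 4.866 in null skin (-0.63, SE 0.105, limma adjusted p = 0.00615). Its genotypes did not overlap. Iigp1 of the same family was lower by -0.71 (0.0113), and Irgm2 by -0.44 (0.0140). Iigp1 was above the negative control median on 3 of 8 arrays, none of them null, and Irgm2 on 6, so that these sizes are differences of signals near background. Igtp and Iigp1 kept their calls without each array, Iigp1 lost its call without the sex term (0.0677), and Irgm2 lost its call without male null 2 (0.0540) or female null 1 (0.0518). The ISRE core was in 6 of 7 promoters of this list (85.7%).

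Some genes of antigen presentation and some chemokines were higher in null skin. Of 20 class I genes, 4 were higher and none lower (median 0.16), 7 were higher with mice paired and 6 without the library labelled female WT 1. Higher calls over all genes also went from 2151 to 2528 with mice paired and to 2278 without that library. H2-K1, a class I heavy chain, read 7.12, 7.08, 7.38 and 7.15 in WT and 7.66, 7.59, 7.68 and 7.63 in null skin (0.46, limma adjusted p = 0.00291). The peptide trimmer Erap1 (0.43, 0.00342) and the chaperone Calr (0.41, 0.00282) were higher too, and these 3 kept their calls without each array. Of 8 interferon-induced chemokines, 2 were higher and none lower. Ccl8 was higher by 0.85 (0.0128) and kept its call without each array, but all WT values and 2 null values were under the negative control medians, so the size of its change is uncertain. Ccl2, the monocyte attractant, was higher by 0.47 (0.0302) but was not called on leaving out female null 1, female WT 2, male null 1 or either WT male (0.0579 to 0.0963). Cxcl9, Cxcl10 and Cxcl11, which interferon gamma induces, were under the negative control median on all arrays and not called.

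**Figure D4:**
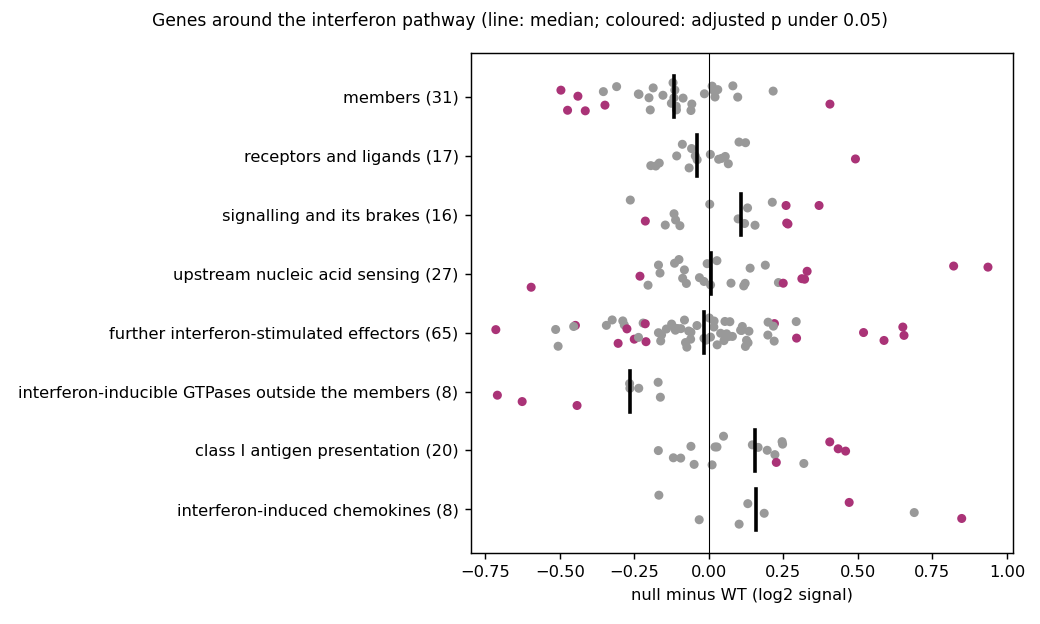
Null minus WT difference in log2 signal of each gene in the members and the 7 lists around them (number measured in brackets), with the median as a line and called genes in colour. The GTPases outside the members all lie left of 0, and the class I and chemokine medians lie right of it at 0.16.

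Markers of other cell types moved with genotype as well. Of 18 skeletal muscle genes, 16 were lower (median -0.88). Of 10 macrophage markers, 3 were lower, C1qc, Cd163 and Mertk (median -0.39), and the array means of that list ran from 5.99 to 6.46 in WT and from 5.42 to 6.07 in null skin. Of 7 plasmacytoid dendritic cell markers, 1 was lower (median -0.19, array means 5.40 to 5.87 in WT and 5.14 to 5.52 in null skin). It was Cox6a2 (-0.93), which striated muscle also expresses. Siglech, which marks these cells, differed by -0.0006 and was above the negative control median on 1 array, and Klk1 of the same list ran from 3.71 to 8.26. Of 11 Langerhans and dendritic cell markers, 5 were higher (0.27, 4.78 to 4.89 against 5.05 to 5.24), and of 13 endothelial markers 3 were higher (0.17). In the Langerhans and dendritic list 4 markers, Flt3, Xcr1, Clec9a and Zbtb46, were under the negative control median on all arrays. Of 8 neutrophil markers, 3 were higher, and of 4 monocyte markers 1, Chil3 (4.47). All 5 melanocyte markers were higher (median 0.85), but 2 of them, Tyr and Mlana, were under the negative control median on all arrays. The array means of that list ran from 3.76 to 4.01 in WT, also under those medians, and from 4.47 to 5.19 in null skin. Of 6 mast cell markers 1 was lower (median -0.47), of 9 fibroblast markers 2, Dcn (-0.83) and Dpt (-0.86), and of 5 lymphatic endothelial markers 2 were lower, with Lyve1 at -1.21, and 1 higher. No natural killer marker was called, and 6 of 8 of these and 5 of 8 T cell markers, Cd4 and Cd8a among them, were under the negative control median on all arrays. The part of any of these cell types in the member differences was not tested.

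With the mean of the 18 muscle genes as a covariate, no member was called in limma, higher or lower. Sex and that mean together hold 73.2% of the genotype term, and the standard errors were larger. This fit therefore cannot tell muscle from genotype. Gbp3 then differed by -0.57 (SE 0.158, adjusted p = 0.134), Gbp4 by -0.51 (0.193, 0.270), Gbp7 by -0.38 (0.192, 0.443), Ifit3 by -0.36 (0.168, 0.391), Gbp2 by -0.17 (0.193, 0.805) and Trim25 by 0.41 (0.0985, 0.0907). The median over members was 0.04. Of the 24 genes named from the lists, 4 kept their calls: Sting1 (1.48), Slfn2 (1.12), Ch25h (0.87) and H2-K1 (0.67). Among those that lost theirs, Ccl8 (1.38), Ifngr2 (0.53), Samhd1 (0.79), Igtp (-0.69) and Iigp1 (-0.83) had differences near or beyond their earlier size. Irgm2 went from -0.44 to -0.07, Ifi207 from -0.72 to -0.14 and Xaf1 from -0.30 to -0.05. Over all genes 222 were then called higher and 99 lower, against 2151 and 1823 in the main fit.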

How the data were processed

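Total RNA from 8 forepaw skins was labelled with biotin and hybridised to Affymetrix arrays. The deposited values are log2 signals that the authors made with RMA in Partek per the submitters' processing notes. Software releases and genome build were not given in the sources used here. Among 72688 probe sets, 6732 are controls and were not tested. In the platform annotation 31100 of the rest named 1 gene, 1650 several and 33206 none, which gave 30571 genes. The brightest probe set stood for a gene. Gene names were updated through a RefSeq table of GRCm38.p6, which also gave the promoters.

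Genotype plus sex was fitted with limma 3.58.1 (R 4.3.3; lmFit, eBayes with trend), with p-values adjusted by Benjamini-Hochberg over all genes. The smallest group is 2 mice, and p-values measure the spread between these mice. The fit was tested on simulated data. Members and lists were chosen with earlier results of these data known. All members are described, and each list is represented by its called genes with the largest differences, up to 3 higher and 3 lower. Values of unlisted genes are given only where a result needs them. Alternatives were no sex term, pairing, other scalings, filters, priors, array weights, a muscle covariate and each array left out. For the pairing, mice of the same sex and replicate number were matched, and the labels do not say what the numbers mark. Deviations of these pairs correlated by 0.318 in males and 0.116 in females. With 2 arrays in each group, matching the mice the other way would only reverse the sign. The correlations therefore do not show that the mice were paired. Python 3.11.15 drew the figures.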

Additional observations from a re-analysis of the deposited data

Results flagged for a closer look

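In 62 groups of 4 arrays (31 members in each genotype), 4 had an array that stood far from the other 3 by Dixon's test, which chance does in about 1 in 20 groups. Irf9 read 5.86 in the library labelled female WT 1 and 5.78 to 5.79 in the other WT mice. Oas2 read 4.20 in the same library and 3.79 to 3.82 in the others. Ifit2 read 4.05 in male WT 2 against 4.38 to 4.43. Ifi35 read 5.45 in male null 2 against 5.35 to 5.37 in the other null mice. Both Oas2 and Ifit2 lie under or around the negative control medians.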

How the results depend on the processing

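The 5 lower and 1 higher calls became 4 and 1 without the sex term, 7 and 1 with the replicate block (4 pairs, which added Irf7 and Ifit2), 6 and 1 after repeated quantile normalization, and 0 and 0 with the muscle covariate. Leaving out 1 array gave 1 to 6 lower calls and 1 to 2 higher. The lowest count, 1, came without male null 2 and without female null 1, and 3 came without male WT 1 or female null 2. Gbp3 and Trim25 were called in each of these 8 fits. Calls over all genes moved as well, from 1823 lower and 2151 higher in the main fit. Leaving out 1 array gave 833 to 1850 lower and 1195 to 2278 higher over all genes. The lower calls over all genes were 833 without male null 2 and 837 without female null 1. They were 1995 with the replicate block and 2391 with array weights. Centred arrays, averaged probe sets, other priors, array weights and both filters on dim genes gave 4 to 7 lower calls and 1 higher. The filters, at the negative control median and at the median level, left only 19 and 14 members to test. Ifit3 was left out by both and Gbp3 by the filter at the median level, while Irf7 was called lower with both. Over members and all alternatives, 500 differences kept direction and side of the threshold, 24 lost a call, 14 gained one and 22 uncalled ones changed sign or moved. With 1 array left out, the lists gave 1 to 3 higher and 0 to 2 lower calls for signalling, 2 to 6 and 1 to 2 for sensing, 4 to 7 and 1 to 6 for further effectors, 2 to 6 lower for the GTPases, 3 to 6 higher for class I and 1 to 3 higher for chemokines. Among the named genes of the lists, 77 of the alternative values lost a call. The cause of lost calls was not tested. Members under the negative controls limit what can be seen.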
